A study of Mus musculus with 8 samples.

Results

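The genes of DNA damage checkpoint signalling and fork protection were followed in sorted mouse hematopoietic stem cells. They are 31 genes taken by name from a deposited table of 52224 genes, and all 31 were tested among 37414 genes. They were grouped by role into 12 genes of the ATR branch, 7 of the ATM branch, 6 fork remodellers and fork protection factors, and 6 helicases and endonuclease subunits. The cells were bone marrow LSK cells (lineage-negative, Sca-1-positive, Kit-positive) sorted as CD150-positive and CD48-negative. There were 4 libraries from mice of genotype DekCon and 4 from mice of genotype DekTg. The labels name these genotypes without describing an allele, a promoter or an age, and do not say that the libraries came from separate mice. Their p-values then describe only how these samples vary, and that variation may be technical. The study is about DEK, a chromatin protein, replication stress and stem cell function in Fanconi anemia.

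ATR and ATM are the apical kinases of the DNA damage checkpoint. ATR is recruited to the single-stranded DNA that builds up when a replication fork stalls, and acts through CHK1 to slow the cell cycle and hold back origin firing. ATM responds to DNA breaks sensed by the MRE11-RAD50-NBN complex, and acts through CHK2 and through marks on the surrounding chromatin. At the fork itself, translocases reverse the stalled structure, other factors shield it from nucleases, and helicases and nucleases restart or resolve it. Quiescent stem cells use these routes each time they enter the cycle. Most of this signalling runs through protein modification, which RNA levels do not measure.

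No member differed between DekTg and DekCon by the test over all genes. Of the 31 members, 0 passed a limma adjusted p of 0.05, against 13 of the 37414 genes tested (0.0347%), and the smallest adjusted p of a member was 0.711. Timeless, Blm and Recql had an unadjusted p under 0.05, all with lower values in DekTg. That is 3 of 31 members, where 3.78% of all genes tested were lower and 3.15% higher at that level. The same 3 members were under 0.05 unadjusted with edgeR's quasi-likelihood test and with DESeq2 on the recovered reads, and both tools called 0 members. The groups did not overlap in 1 member, Timeless, which was lower in DekTg, against 1.88% of genes lower and 2.09% higher without overlap. In bulk samples, fewer cells of a type and less RNA per cell cannot be told apart.

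**Figure D1:**
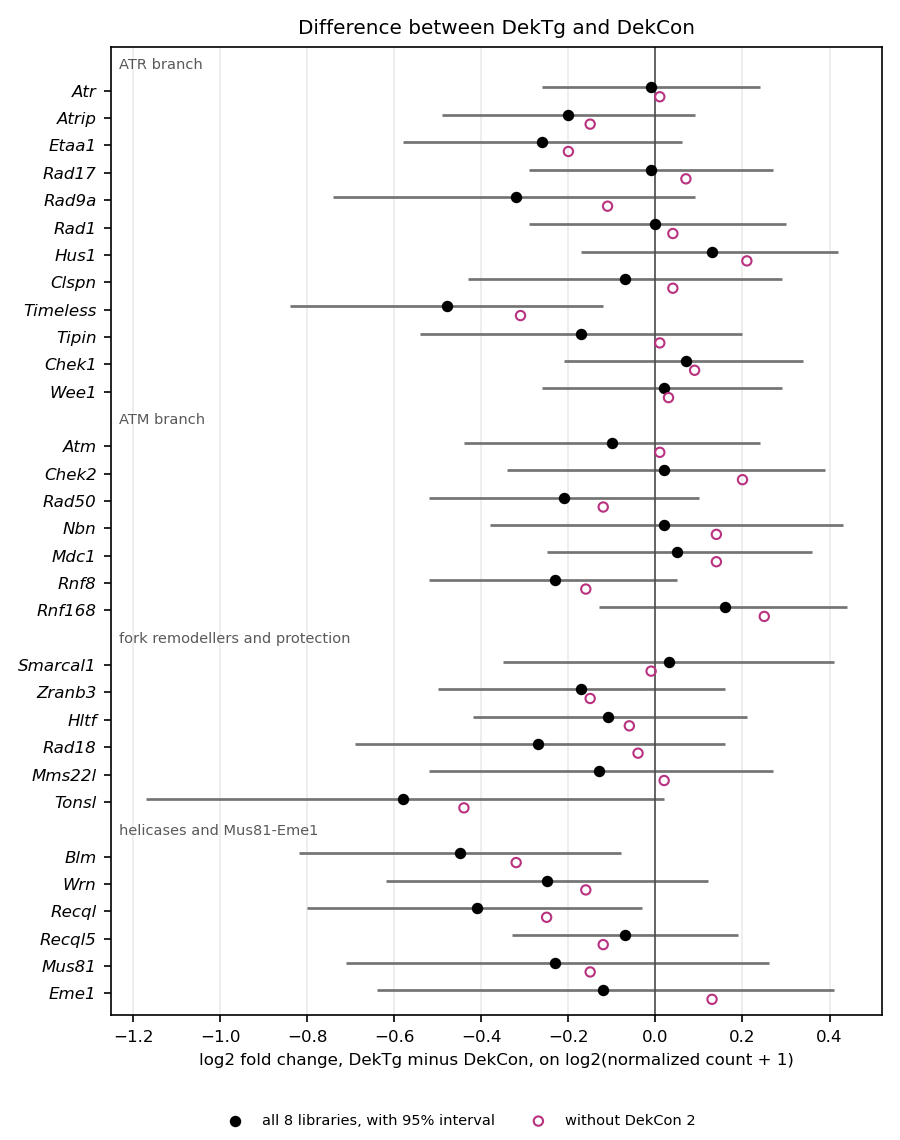
Difference of DekTg minus DekCon on the log2(normalized read count + 1) scale for each of the 31 members, by role, with its 95% interval in black. The black points, from all 8 libraries, ran from -0.58 in Tonsl to 0.16 in Rnf168. Open circles give the difference without the second DekCon library, and most of them lie to the right of the black points.

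The values are normalized read counts, that is, gene counts divided by 1 size factor per library and not scaled for gene length. Differences are on the log2(value + 1) scale, DekTg minus DekCon. They were below 0 in 22 of 31 members (71.0%), with a median of -0.12, while 49.4% of all genes tested were below 0, with a median of 0.006. By role, the median difference was -0.04 in the ATR branch (8 of 12 below 0), 0.02 in the ATM branch (3 of 7), -0.15 in the fork factors (5 of 6) and -0.24 in the helicases and endonuclease (6 of 6). Without DekCon 2 these were 0.02 (4 of 12), 0.14 (2 of 7), -0.05 (5 of 6) and -0.155 (5 of 6). Differences between the role groups were not tested. The downward lean was lost without the second DekCon library: 16 of 31 members were below 0 with a median of -0.007, beside 50.9% of all genes with a median of -0.007, and 0 members had an unadjusted p under 0.05. It was present again without both libraries numbered 2, with 23 of 31 below 0 and a median of -0.08 beside 0.007 over all genes. The 12 cycling genes leaned the same way, with 12 of 12 below 0 and a median of -0.26, 8 of 12 and -0.08 without DekCon 2, and 10 of 12 and -0.15 without both libraries numbered 2. Their part in the lean was not tested. With libraries 1 and 4 averaged, 25 of 31 were below 0. With each library scaled to a common total, 18 of 31 were below 0, beside a median of 0.08 and 39.8% below 0 over all genes. With all 8 libraries taken as separate samples, the 95% intervals of 30 of 31 members excluded a 2-fold change in either direction, the exception being Tonsl. Intervals with libraries 1 and 4 averaged are not given here.

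Dek, the gene in the genotype names, had listed values of 395.2 to 632.3 in the DekCon group and 1861.8 to 2710.3 in the DekTg group (log2 fold change 2.23, SE 0.16, limma adjusted p = 1.14e-06), although its 4 DekTg values are not whole reads. The planned exact permutation test gave p = 0.0286, and p = 0.1 with libraries 1 and 4 averaged. Each is the smallest p that so few libraries allow. Libraries 1 and 4 of each group resembled each other, with a mean chi-square of 1.59 per gene (1 degree of freedom) against 3.41 to 7.70 in the other 10 pairs within groups. Whether they are separate samples cannot be told from these values, since amplified reads are not independent molecules. They are counted as separate libraries here, and the difference with libraries 1 and 4 averaged is given beside each member it moves most. The 10 stem cell markers summed to 3079 to 3732 in DekCon and 2983 to 3632 in DekTg, with none at 0. The 6 myeloid genes summed to 3649 to 9380 in DekCon and 2126 to 13720 in DekTg, with 0 called. DekTg 3 held the highest myeloid sum, 13720, against 4446 in the next DekTg library. The transcripts typical of B cells and plasma cells stood at 333 to 1084 against 4396 to 5218 over 8 genes, and those of red cells at 156 to 440 against 477 to 610 over 8 genes, with 2 and 3 of them called. Among the red cell genes the 4 globins were higher in DekTg, while the means of Klf1 (99.9 and 42.6) and Epor (58.0 and 24.6) were lower there. Their part in the members' values was not tested. The second DekCon library had the lowest sum of Cd48 and Flt3 (289, against 542 to 1095 in the other DekCon libraries) and the highest sums of 4 megakaryocyte genes (9046 against 2546 to 4600) and of 12 cycling genes (9116 against 4718 to 6150). In DekTg these sums were 915 to 1075, 1949 to 3237 and 4351 to 5768, with 0 genes called in each set. Itga2b (means 1997.1 in DekCon and 1007.2 in DekTg) and Gp5 (305.7 and 123.4) were lower in DekTg without overlap. Pf4 and Gp9 overlapped between the groups. The part of these genes in the members' values was not tested.

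Timeless, which with Tipin forms the fork protection complex that travels with the replisome, was the member with the smallest p. Its normalized read count was 143.3, 241.1, 164.9 and 149.7 in DekCon and 142.6, 103.3, 128.1 and 118.6 in DekTg. All 4 DekTg libraries lay below all 4 DekCon libraries, but DekTg 1 and DekCon 1 were almost level. The means were 174.8 ± 45.2 and 123.2 ± 16.5 (SD, n = 4 each), a ratio of 0.705. The log2 difference was -0.48 (SE 0.17, 95% interval -0.84 to -0.12, limma unadjusted p = 0.0123, adjusted p = 0.711). It was -0.58 with libraries 1 and 4 averaged, -0.31 without DekCon 2 and -0.23 without both libraries numbered 2. Timeless lies on GRCm38 at chr10:128232065-128252941 on the plus strand.

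Tipin, the smaller partner of that complex, had a smaller difference, and the contrast with Timeless was not tested. The 95% interval of the Tipin difference, -0.54 to 0.20, held the Timeless value. It was at 218.0, 373.2, 260.1 and 206.8 in DekCon and 213.5, 288.3, 225.1 and 196.3 in DekTg. The second library was the highest in both groups and the groups overlapped (log2 difference -0.17, SE 0.18, adjusted p = 0.858). Without DekCon 2 it was 0.007. Clspn encodes Claspin, the adaptor through which ATR phosphorylates CHK1. It was at 104.0, 164.6, 162.1 and 105.7 in DekCon and 126.9, 138.1, 122.3 and 112.3 in DekTg. The DekTg values fell inside the DekCon range, and the difference was -0.07 (95% interval -0.43 to 0.29). It was 0.04 without DekCon 2 and -0.16 with libraries 1 and 4 averaged.

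**Figure D2:**
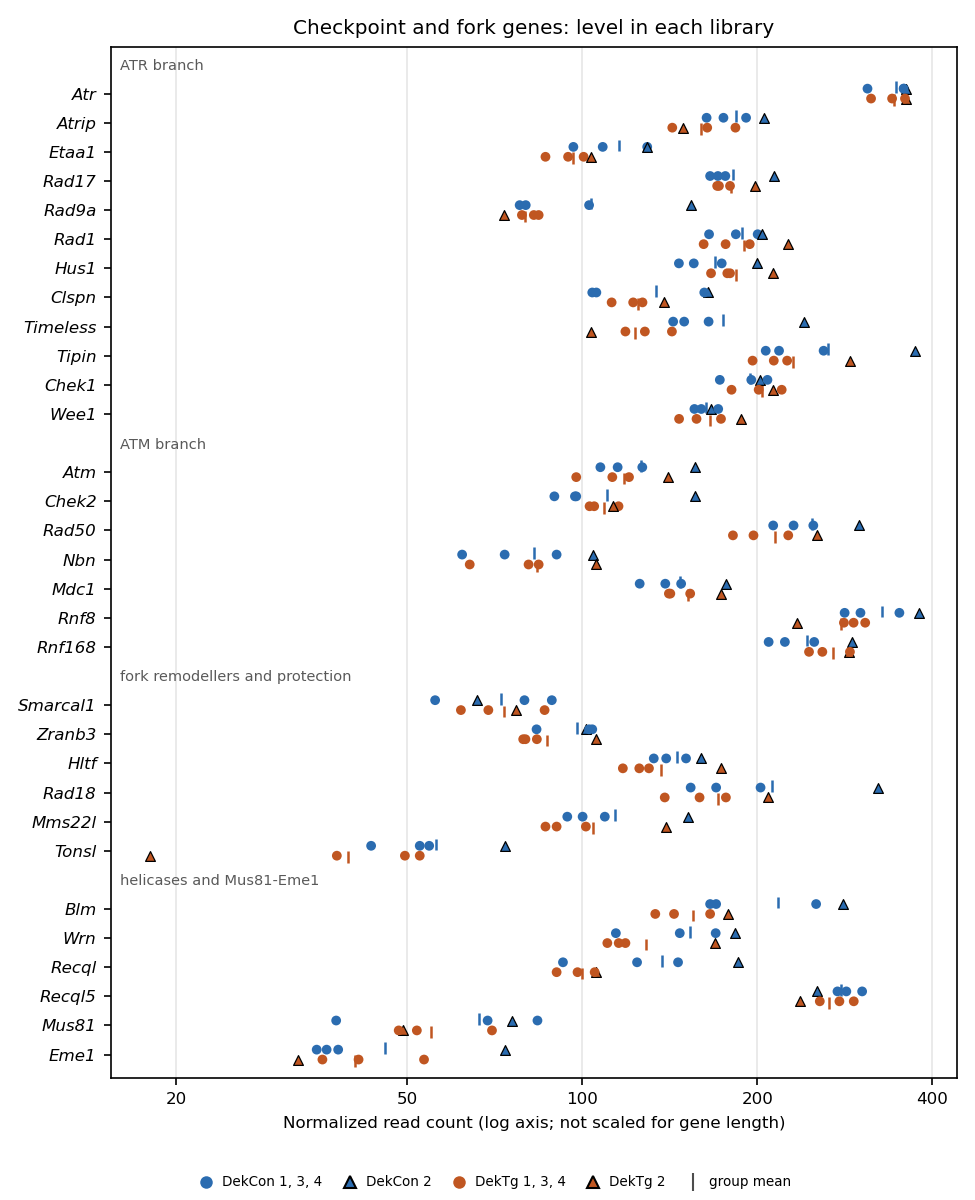
Normalized read count of each member in each of the 8 libraries on a log axis, DekCon in blue and DekTg in orange, with the libraries numbered 2 as black-edged triangles and group means as vertical ticks. The blue triangle is the highest DekCon point in 24 of 31 members, and Timeless is the one member whose colours do not overlap.

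The kinase genes of the ATR branch, Atr, Chek1 and Wee1, were nearly level between the genotypes. Atr was at 357.5, 360.8, 357.1 and 309.5 in DekCon and 341.2, 360.4, 359.1 and 313.9 in DekTg. The libraries numbered 4 were the lowest of each group, and the groups overlapped throughout. The difference was -0.01 (95% interval -0.26 to 0.24, limma adjusted p = 0.990). Chek1, which encodes CHK1, was at 172.4, 201.9, 208.2 and 195.3 in DekCon and 201.1, 212.6, 220.3 and 180.6 in DekTg. The difference was 0.07 (95% interval -0.21 to 0.34), with overlapping groups. Wee1, the kinase that restrains Cdk1 and Cdk2 by tyrosine phosphorylation, was at 155.9, 166.5, 160.2 and 171.3 in DekCon and 146.7, 187.4, 157.2 and 173.2 in DekTg. The DekCon values lay inside the DekTg range, and the difference was 0.02 (95% interval -0.26 to 0.29).

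Among the factors that recruit and activate ATR, Etaa1 had the second smallest p of the branch. Its protein binds RPA on single-stranded DNA and stimulates ATR directly. Etaa1 was at 129.3, 129.2, 108.4 and 96.5 in DekCon and 100.5, 103.3, 86.4 and 94.5 in DekTg. DekCon 1 to 3 exceeded all DekTg libraries, while DekCon 4 fell among them. The difference was -0.26 (95% interval -0.58 to 0.06, unadjusted p = 0.104, adjusted p = 0.756). Atrip, the obligate partner of ATR, had a difference of -0.20 (adjusted p = 0.787). Rad17, which loads the checkpoint clamp, had a difference of -0.01. Of the 3 clamp subunits, Rad1 had 0.00, Hus1 0.13 and Rad9a -0.32. Rad9a rested on DekCon 2, at 154.1 against 78.0 to 102.7 in the other DekCon libraries, and its difference was -0.11 without it and -0.44 with libraries 1 and 4 averaged.

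In the ATM branch, Atm was at 126.8, 156.0, 107.4 and 115.0 in DekCon and 120.3, 140.5, 112.6 and 97.6 in DekTg. The second library was the highest in both groups, and the groups overlapped (difference -0.10, 95% interval -0.44 to 0.24; 0.008 without DekCon 2). Chek2, the effector kinase of ATM, was at 97.6, 156.0, 97.1 and 89.5 in DekCon and 115.4, 112.9, 104.8 and 102.9 in DekTg. The 4 DekTg values lay between DekCon 2 and the other 3 DekCon libraries. The difference was 0.02 with all libraries, 0.20 without DekCon 2 and -0.04 with libraries 1 and 4 averaged.

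Rad50, the coiled-coil ATPase of the break-sensing complex, was at 249.7, 299.5, 230.9 and 213.0 in DekCon and 197.0, 253.4, 226.1 and 181.6 in DekTg. The groups overlapped (difference -0.21, 95% interval -0.52 to 0.10, adjusted p = 0.795; -0.12 without DekCon 2). Nbn, which recruits ATM to that complex, had a difference of 0.02. Mdc1, the reader of phosphorylated histone H2AX, had 0.05. Rnf8 and Rnf168 encode ubiquitin ligases that act in turn on chromatin at a break. Rnf8 was at 351.2, 378.9, 282.7 and 301.0 in DekCon and 281.9, 234.2, 306.7 and 292.9 in DekTg, a difference of -0.23 with overlapping groups (unadjusted p = 0.105, adjusted p = 0.757). It was -0.15 without DekTg 2. Rnf168 had the highest difference of all members, 0.16 (95% interval -0.13 to 0.44, adjusted p = 0.831). It was 0.25 without DekCon 2 and 0.10 with libraries 1 and 4 averaged. Thus the ligases that act one after the other lay on opposite sides of 0, and neither differed beyond its spread.

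Smarcal1, Zranb3 and Hltf encode the translocases that reverse stalled forks, and their differences were 0.03, -0.17 and -0.11. None of the 3 had an adjusted p below 0.841. Rad18, the ligase that ubiquitinates PCNA at stalled forks, was at 169.9, 322.5, 202.6 and 153.6 in DekCon and 159.1, 209.0, 176.6 and 138.6 in DekTg. DekCon 2 stood far above the other 7 libraries. The difference was -0.27 (95% interval -0.69 to 0.16) and became -0.04 without DekCon 2.

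Mms22l and Tonsl encode partners in a complex that reads newly made histones and protects damaged forks. Tonsl had the lowest difference of all members. It was at 54.5, 73.7, 43.3 and 52.5 in DekCon and 49.5, 18.0, 37.8 and 52.5 in DekTg, with 15 to 77 reads behind each value. DekTg 2 was far below the other libraries, and the rest of the groups overlapped. The difference was -0.58 (SE 0.28, 95% interval -1.17 to 0.02, unadjusted p = 0.0586, adjusted p = 0.721). It was -0.25 without DekTg 2, -0.11 without both libraries numbered 2 and -0.74 with libraries 1 and 4 averaged. Mms22l, at 101.4, 139.3, 86.4 and 90.3 in DekTg, was instead highest in DekTg 2, and its difference was -0.13, or 0.02 without DekCon 2.

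Blm, the RecQ helicase that dissolves recombination intermediates together with topoisomerase III alpha, was at 169.9, 281.3, 252.5 and 165.9 in DekCon and 133.5, 177.8, 165.9 and 143.8 in DekTg. DekCon 2 and 3 lay above all DekTg libraries, while DekCon 1 and 4 lay among them. The means were 217.4 ± 58.4 and 155.3 ± 20.2 (SD, n = 4 each). The difference was -0.45 (SE 0.18, 95% interval -0.82 to -0.08, unadjusted p = 0.0199, adjusted p = 0.711). It was -0.51 with libraries 1 and 4 averaged and -0.32 without DekCon 2. Without both libraries numbered 2 it was -0.38, with a limma adjusted p of 0.577. Blm lies at chr7:80454733-80535119 on the minus strand.

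Recql, a helicase that restores reversed forks, was at 124.2, 185.6, 146.1 and 92.6 in DekCon and 98.1, 105.7, 90.3 and 105.0 in DekTg. DekCon 1 to 3 lay above all DekTg libraries and DekCon 4 lay among them. The difference was -0.41 (SE 0.18, 95% interval -0.80 to -0.03, unadjusted p = 0.038, adjusted p = 0.711). It was -0.25 without DekCon 2 and -0.53 with libraries 1 and 4 averaged. Of the annotated exonic length of Recql (chr6:142350342-142387087, minus strand), 37.7% is shared with Pyroxd1 on the opposite strand. The strand setting of the counting is not given in the sources used here, so reads of the pair may not be separable. Exonic bases are shared with another gene in 12 of 31 members, Recql having the largest share. Atrip shares 16.0% of its length with Trex1 and Rnf8 13.2% with Gm28043, both on the same strand, where no strand setting separates reads. Rad9a shares 9.5% with Ppp1ca on the opposite strand.

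The other members of this role group had smaller or less certain differences. Wrn, the helicase of Werner syndrome, had -0.25 (adjusted p = 0.793), and -0.16 without DekCon 2. Recql5, which acts at transcribed and replicating chromatin, was at 303.0, 253.6, 284.6 and 274.8 in DekCon and 276.9, 236.6, 293.1 and 256.2 in DekTg. Its second library was the lowest in both groups, unlike most members, and the difference was -0.07. Mus81 and Eme1 form a structure-specific endonuclease that cuts unresolved forks. Mus81 had a difference of -0.23 (adjusted p = 0.856), which was -0.15 without DekCon 2 and -0.11 with libraries 1 and 4 averaged. Eme1 was at 38.0, 73.7, 34.9 and 36.3 in DekCon and 41.2, 32.4, 53.4 and 35.7 in DekTg, and its difference of -0.12 became 0.13 without DekCon 2.

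The second library of each group set much of the pattern among members. DekCon 2 was the highest DekCon library in 24 of 31 members (77.4%), against 29.2% of all genes tested and 33.1% of the 22884 genes with a value of at least 10 in 4 libraries. The median ratio of DekCon 2 to the mean of the other DekCon libraries was 1.28 over members and 0.98 over all genes tested. It was 2.02 in Eme1, 1.84 in Rad18, 1.77 in Rad9a and 1.65 in Chek2. The kinases Wee1 (1.02), Chek1 (1.05) and Atr (1.06) were nearly flat there, and Smarcal1 (0.885) and Recql5 (0.882) were lower. DekTg 2 was the highest DekTg library in 19 of 31 members (61.3%), against 29.5% of genes tested, with a median ratio of 1.14. The cycling genes moved with the members: their median distance from the mean of the 8 libraries was 0.72 (log2) in DekCon 2 and 0.18 in DekTg 2, and between -0.33 and 0.25 in the other 6. The members' own medians were 0.35, 0.11 and -0.15 to 0.04. The part of the cycling genes in the members' values was not tested.

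**Figure D3:**
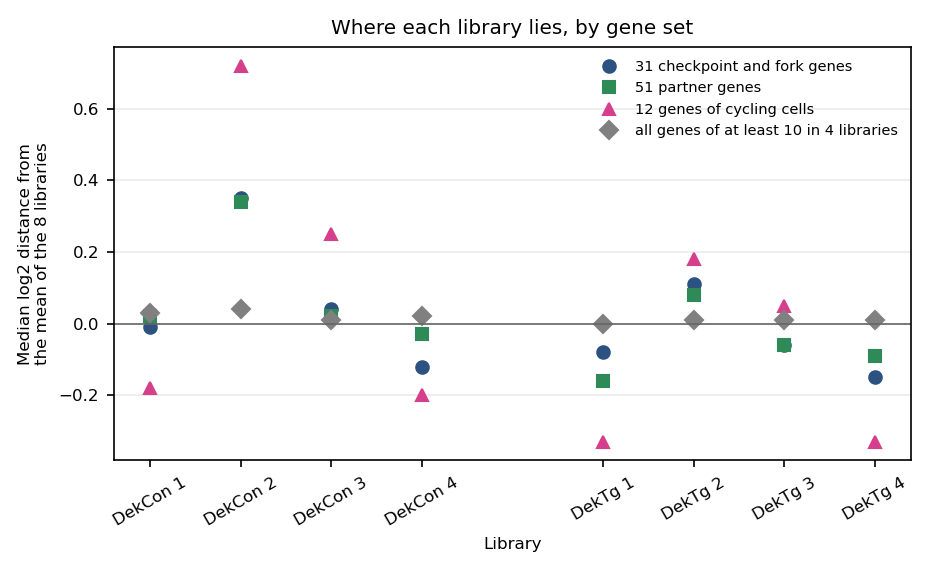
Median log2 distance from the mean of the 8 libraries, for the 31 members, 51 further pathway genes, 12 cycling genes and all genes with a value of at least 10 in 4 libraries, by library. The members rise to 0.35 and the cycling genes to 0.72 in DekCon 2, while the all-gene medians stay between 0.00 and 0.04.

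**Figure D4:**
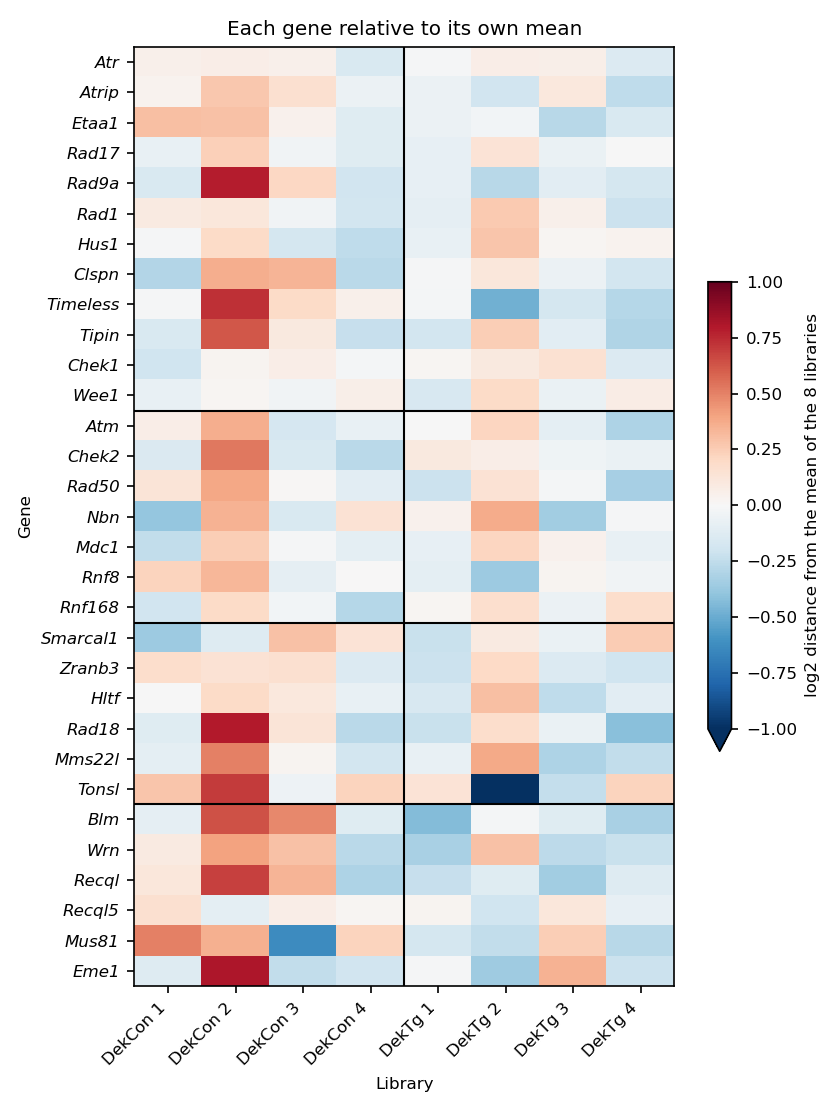
Heat map of the log2 distance of each member from its mean over the 8 libraries, with members in rows by role and libraries in columns. The DekCon 2 column is above the mean in most rows, and Tonsl in DekTg 2 is the farthest below.

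In DekTg 2 the members' values fell as the GC content of their transcripts rose. The members' log2 ratio to the mean of the other DekTg libraries there had a correlation of -0.70 with the GC content of the principal transcript (31 genes, which share a library and are not independent). Over 14693 protein-coding genes of at least 10 in 4 libraries the same correlation was -0.46. In the other 7 libraries it lay between -0.38 and 0.51 over the members. DekTg 2 is part of the mean that DekTg 1, 3 and 4 were set against, so their correlations are not independent of its own. Tonsl (57.5% GC), Timeless (55.1%) and Eme1 (53.5%) were low in DekTg 2, at ratios of 0.387, 0.796 and 0.747, and Rnf8 (49.6%) was at 0.797. Wrn (42.1% GC), Hltf (39.9%) and Tipin (40.8%) were high, at 1.47, 1.39 and 1.36. Other members were off this trend: Mms22l (46.1% GC) had the highest ratio, 1.5, Etaa1 (39.8%, the lowest GC) was at 1.10, Atr (40.8%) at 1.07 and Mus81 (58.2%, the highest GC) at 0.869. In DekCon 2 the correlation with GC was 0.04 over the members. DekTg 2 held the lowest value of Timeless and of Tonsl. Without DekTg 2 the difference of Timeless was -0.40, that of Blm (44.0% GC) -0.52 and that of Recql (44.1% GC) -0.44. The part of base composition in the differences between the genotypes was not tested.

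The spread within groups lay above what the read numbers alone would give. The SD of log2 values ran from 0.10 in Atr to 0.53 in Tonsl with a median of 0.22. The read numbers alone would give 0.08 to 0.23 with a median of 0.12. The gap was wide in Tipin (0.32 against 0.09) and narrow in Wee1 (0.12 against 0.11). Wee1, Chek1 and Recql5 were at 0.12 each. Eme1 (0.42), Mus81 (0.40) and Rad18 (0.38) followed Tonsl at the top.

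Levels of different genes were compared per kilobase of the principal transcript. Tipin was the highest at 144 ± 41.3 normalized reads per kilobase in DekCon (SD, n = 4), followed by Rad1 at 125 ± 11.7 and Rad18 at 82.2 ± 29.6, where Tipin and Rad1 did not differ beyond their spread and the ranges of mean ± SD of Rad1 and Rad18 did not overlap. The effector and brake kinases were close to each other, with Chek1 at 51.2 ± 4.11, Chek2 at 48.3 ± 13.5 and Wee1 at 47.8 ± 1.99, also within their spread. Atr stood at 42.7 ± 3.03 and Timeless at 39.2 ± 10.1. Tonsl at 13.2 ± 3.01 and Atm at 12.9 ± 2.18 were the lowest. These values depend on the length used. Over all annotated exonic bases Rad1 falls to 25.4 and Atr to 14.7 while Tipin stays at 141. The order is therefore a description under one choice of transcript.

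Promoter sequence was read for the members because many genes of replication stress signalling are textbook targets of E2F, the transcription factor family of the G1 to S transition. RefSeq's table for GRCm38.p6 held an entry for 24 of the 31 members. The 250 bases before each start were searched on both strands for TTTCGCGC, TTTGGCGC, TTTCCCGC and TTTGCCGC. Some of these windows hold annotated exons of the same gene, and the search covered those bases too. The Chek1 window and a Zranb3 window lie wholly in exons, and only 29 bases of the Eme1 window lie outside them. The Blm window and a Recql window are also partly exonic. The letters were found in 2 of 24 members (8.3%), Chek2 and Mdc1, against 2.8% of the 17579 genes tested that have a promoter entry. In Chek2 they lie 152 bases before the start on the minus strand, and in Mdc1 16 bases before it on the plus strand. The Mdc1 start is RefSeq's and was not found in a GENCODE transcript. The GENCODE gene begins further on, at chr17:35841515. The sequences show both matches, in capitals, beside Timeless, the member with the smallest p, whose window holds none. The Timeless window precedes the RefSeq start, which lies inside the longer GENCODE gene given above. All are on the plus strand of the genome, at chr5:110839733-110839978, chr17:35841248-35841497 and chr10:128237816-128238065.
Chek2: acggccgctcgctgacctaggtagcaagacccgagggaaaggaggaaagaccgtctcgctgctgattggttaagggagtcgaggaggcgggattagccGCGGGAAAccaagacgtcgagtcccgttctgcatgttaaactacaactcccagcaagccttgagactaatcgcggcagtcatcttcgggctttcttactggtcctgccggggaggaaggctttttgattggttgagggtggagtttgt
Mdc1: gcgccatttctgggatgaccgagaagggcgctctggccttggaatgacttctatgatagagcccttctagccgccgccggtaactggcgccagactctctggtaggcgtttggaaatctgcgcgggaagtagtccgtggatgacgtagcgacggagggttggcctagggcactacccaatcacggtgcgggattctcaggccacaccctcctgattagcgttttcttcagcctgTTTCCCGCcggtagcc
Timeless: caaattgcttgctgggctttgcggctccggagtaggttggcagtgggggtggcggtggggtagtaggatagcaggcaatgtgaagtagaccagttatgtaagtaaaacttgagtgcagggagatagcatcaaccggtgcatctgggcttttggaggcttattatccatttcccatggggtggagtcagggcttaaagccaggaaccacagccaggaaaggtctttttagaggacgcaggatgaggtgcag
Chek2 and Mdc1 had differences of 0.02 and 0.05 and neither differed between the genotypes beyond its spread. A match is a description of letters, and no match says only that these letters are not in this window. The members' promoters had a median GC content of 55.6%, as did those of the genes tested, and a median of 17 CpG sites against 10.

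A list of 52 further genes of the same pathways was set beside the members, and all 52 were tested. Of these, 1 was called, Cdk1, the mitotic kinase that WEE1 and CDC25 act on. The deposited values of Cdk1 averaged 267.2 ± 35.5 for DekCon libraries and 18.3 ± 8.06 for DekTg libraries (SD; 4 each; log2 difference -3.87, limma adjusted p = 2.00e-07). Its values are not whole reads in 6 of the 8 libraries, so they are not read counts of the same kind as the members'. Among the other 51 genes 0 were called, 41 were below 0 and the median was -0.17, and without DekCon 2 these were 39 and -0.10. The lean was present in the ATR sensing genes (11 of 12 below 0, median -0.23), the checkpoint targets with Cdk1 (9 of 10, -0.21) and the chromatin genes of the ATM branch (13 of 14, -0.16), and was least in the genes of fork protection and resolution (9 of 16, -0.04). Without DekCon 2 the medians were -0.13, -0.12, -0.11 and -0.07.

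Cdc25b, a phosphatase that activates cyclin-dependent kinases, had the smallest p of these 51. It was at 88.7, 177.0, 94.2 and 82.6 in DekCon and 56.9, 62.5, 100 and 57.7 in DekTg. DekCon 2 was the highest and 3 of 4 DekTg libraries were below all DekCon libraries. The difference was -0.64 (unadjusted p = 0.0154, adjusted p = 0.711) and -0.39 without DekCon 2. Rfc2, a clamp loader subunit, had -0.33, and -0.21 without DekCon 2. Cdk2, the S-phase kinase, had -0.32, and -0.22 without it. H2ax, the histone that ATM phosphorylates around a break, was at 229.5, 559.8, 278.9 and 246.2 in DekCon and 249.7, 93.7, 208.6 and 284.5 in DekTg. Its extremes were the libraries numbered 2 of the opposite groups, and its difference was -0.66 (adjusted p = 0.711), -0.37 without DekCon 2 and -0.94 with libraries 1 and 4 averaged.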

How the data were processed

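The deposited signal per gene and library is named FPKM, but 99.99% of its 417792 values are whole multiples of 1 step per library (tolerance 0.001 reads), and the steps match DESeq2 size factors. The signal is thus treated as counts per gene over a size factor of the authors, although the planned test had assumed FPKM. The 25 exceptions lie in Dek, Cdc20, Cdk1, Fos, Ifit2 and Csf2, none of them a member. Table columns spelled DenCon were taken as the DekCon libraries of the same number. The submitters' processing notes name HTSeq, DESeq2, Cufflinks 2.1.1, Bowtie 0.12.9 and build mm10, with no roles. The annotation used for counting and its strandedness were not given in the sources used here. Recovered reads ranged from 2525884 to 4101132 per library, and amplified reads without molecular identifiers are not independent molecules.

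Genes with a value of at least 1 in 4 of 8 libraries were tested with limma 3.58.1 (R 4.3.3) on log2(value + 1), with a mean-variance trend, no covariates, two-sided tests and Benjamini-Hochberg adjustment over all 37414 genes. Log2 differences understate the change of low genes. edgeR 4.0.16 and DESeq2 1.42.0 were run on the recovered reads. The fit was tested on simulated data. Positions, exon overlaps and principal transcripts are from GENCODE M21 (GRCm38), which mm10 names.

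The members, the further pathway genes and the marker lists were chosen with earlier results of these data known. Members named with every value are the 5 checkpoint kinases, those of smallest p and of highest and lowest level per kilobase in each role group, and those whose groups did not overlap. Rad9a, Mms22l, Cdc25b, H2ax and the comparison with transcript GC content were chosen after the values were seen. The alternatives changed the pseudocount, the filter, the scaling or a limma option, or used a replicate block, averaged libraries 1 and 4 or left out each library. Leaving out both libraries numbered 2 was chosen after seeing the data.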

Additional observations from a re-analysis of the deposited data

Results flagged for a closer look

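In 7 of the 62 groups of 4 values (31 members in 2 genotypes), 1 library stood apart from the other 3 by more than Dixon's 95% critical value, where chance gives about 1 in 20. DekCon 2 was high in Chek2, at 156.0 against 97.6 in the next library, and in Eme1, at 73.7 against 38.0. DekCon 4 was low in Atr, at 309.5 against 357.1, and in Zranb3, at 83.4 against 101.4. DekTg 2 was high in Zranb3, at 105.7 against 83.5, and in Wrn, at 169.4 against 118.6. DekTg 3 was high in Mus81, at 69.9 against 51.9.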

How the results depend on the processing

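Under all 24 alternatives 0 members passed the threshold, and the smallest adjusted p of a member was 0.478, reached by Blm without DekTg 2. The members' median difference ranged from -0.19 without DekCon 4 to -0.007 without DekCon 2. The number of genes past the threshold, 13 with all libraries, was 4 without the mean-variance trend, 8 without the genes holding values that are not whole and 39 without both libraries numbered 2. Leaving out 1 library at a time gave 13 to 22 genes, the highest without DekTg 2. edgeR called 9 genes and DESeq2 14.

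Of the 17 members named with every value, 9 kept their sign throughout and 8 changed it, none with an adjusted p near the threshold; the cause was not tested. With quantile normalization Atr was at 0.098 and Recql5 at 0.026. With a common total Atr was at 0.075, Clspn at 0.014 and Recql5 at 0.014. With library weights Atr was at 0.011, Wee1 at -0.031 and Eme1 at 0.019. Without both libraries numbered 2 Wee1 was at -0.033 and Eme1 at 0.23. Chek2 was at -0.044 with libraries 1 and 4 averaged, -0.005 by edgeR and -0.013 by DESeq2 without independent filtering. With 1 library left out, Atr ranged from -0.063 to 0.033, Wee1 ranged from -0.042 to 0.075, Atm ranged from -0.186 to 0.008, Chek2 ranged from -0.065 to 0.2, Tipin ranged from -0.283 to 0.007, Clspn ranged from -0.18 to 0.039 and Eme1 ranged from -0.253 to 0.133.

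Replicate numbers did not pair the samples: same-numbered libraries had deviations correlated by 0.01 to 0.07, and 3 of 8 libraries correlated best with their own number. With the replicate block 15 genes and 0 members passed, and the members' median was -0.117. Depth limits Tonsl and Eme1 most. DESeq2's independent filtering left an adjusted p for 6 of 31 members.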

Other observations

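Ratios of normalized read counts between partners of a complex were computed by library after the values had been seen, as a description with no test. Timeless over Tipin was 0.657, 0.646, 0.634 and 0.724 in DekCon and 0.668, 0.358, 0.569 and 0.604 in DekTg. The ratio was almost constant in DekCon, where both genes were high together in DekCon 2, and lowest in DekTg 2, where Tipin was high and Timeless low. Tonsl over Mms22l was 0.397 to 0.557 in DekCon and 0.438 to 0.581 in DekTg 1, 3 and 4, but 0.129 in DekTg 2. Eme1 over Mus81 varied more in DekCon, from 0.455 to 0.975, than in DekTg, from 0.659 to 0.794.

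Hus1 over Rad1, subunits of the checkpoint clamp, stayed within 0.846 to 0.981 in DekCon and 0.915 to 1.11 in DekTg. Atrip over Atr was 0.489 to 0.570 in DekCon and 0.413 to 0.511 in DekTg. These ratios compare a pair of genes across libraries and are not molar ratios, since the genes differ in length.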
